A study of Homo sapiens with 22 samples.

Results

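Aldo-keto reductases of the AKR1 family were measured in tumours grown from H2110, a lung adenocarcinoma cell line of human origin, as xenografts. The members were the 8 rows of the deposited gene count table named AKR1A1, AKR1B1, AKR1B10, AKR1B15, AKR1C1, AKR1C2, AKR1C3 and AKR1C4, of 58735 genes in all, and all 8 had enough counts to be tested among 17652 genes. The family was chosen by gene name with expression values of these same tumours, across the same groups, already known, so its values and tests are given as a description. RNA came from 22 tumours in 5 groups: 4 each on RMC-7977 at 10 mg/kg, RMC-4550 at 30 mg/kg, trametinib at 0.3 mg/kg and cobimetinib at 3 mg/kg, and 6 on Vehicle. All groups were dosed by mouth for 3 days once tumours measured about 300 mm³. RMC-7977 inhibits active RAS, RMC-4550 inhibits the phosphatase SHP2, and trametinib and cobimetinib both inhibit MEK1 and MEK2. All tumours came from that cell line, of the host neither strain nor age is given in the sources used here, and nothing states that replicates came from separate animals, so p-values measure the spread between these samples. Levels are in CPM, a gene's counts relative to all counts of its library, scaled by the trimmed mean of M-values (TMM).

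Aldo-keto reductases are soluble enzymes that use NADPH to reduce aldehydes and ketones to alcohols. The AKR1C enzymes act on steroids and prostaglandins: AKR1C1 inactivates progesterone, AKR1C2 inactivates dihydrotestosterone, AKR1C3 forms testosterone and prostaglandin F, and AKR1C4 is a liver enzyme of bile acid synthesis. AKR1B1, aldose reductase, turns glucose into sorbitol in the polyol pathway, AKR1B10 reduces retinal and lipid aldehydes, and AKR1A1, aldehyde reductase, reduces glucuronate. In lung cancers several of these genes are known targets of NRF2, the transcription factor encoded by NFE2L2 that KEAP1 marks for degradation.

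The genes lie in clusters on hg38. AKR1C1 occupies chromosome 10 from 4963253 to 4983283 on the plus strand, AKR1C2 from 4987400 to 5018031 on the minus strand, AKR1C3 from 5035354 to 5107686 and AKR1C4 from 5195462 to 5218949, both on the plus strand. AKR1B1 occupies chromosome 7 from 134442350 to 134459284 on the minus strand, followed on the plus strand by AKR1B10 from 134527592 to 134541408 and AKR1B15 from 134549136 to 134579875. AKR1A1 lies apart, on chromosome 1 from 45550543 to 45570049 on the plus strand. AKR1C2 overlaps the antisense gene AL391427.1, and since the strand setting of the counting is not given in the sources used here, reads of that pair may not be told apart.

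Whether a read can be assigned to one AKR1C gene depends on how far the copies differ, so part of their coding sequence is shown. The stretch was picked as the 90 bases with the most differences between AKR1C1 and AKR1C2. The rest of the coding sequence of these 2 genes is more alike. Each line gives coding positions 73 to 162, counted from the start codon, of the GENCODE 29 transcript, spliced over 2 exons and read 5′ to 3′, with capitals where a base differs from AKR1C1.
AKR1C1: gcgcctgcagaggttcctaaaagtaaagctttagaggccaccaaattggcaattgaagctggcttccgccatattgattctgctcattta
AKR1C2: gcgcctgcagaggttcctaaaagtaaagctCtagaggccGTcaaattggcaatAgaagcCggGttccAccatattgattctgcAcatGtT
AKR1C3: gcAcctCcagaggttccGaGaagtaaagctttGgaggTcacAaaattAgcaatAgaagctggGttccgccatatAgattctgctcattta
AKR1C4: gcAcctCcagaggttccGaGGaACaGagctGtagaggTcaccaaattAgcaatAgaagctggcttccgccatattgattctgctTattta
In these 90 bases AKR1C2 differed from AKR1C1 at 10 positions, AKR1C3 at 11 and AKR1C4 at 13. The stretch holds most of the 19 differences that separate AKR1C2 from AKR1C1 over the whole 969 coding bases, which were 98.0% identical and shared a run of 186 bases. Coding identity with AKR1C1 was 91.7% for AKR1C3 and 89.0% for AKR1C4, with gap columns counted as differences (4 and 6 columns). AKR1B10 and AKR1B15 were 86.4% identical on that count. Their alignment of 1033 columns held 86 gap columns and 54 mismatches, so the percentages are not alike in what lowers them. Of all windows of 100 bases in the annotated transcripts, 23.1% in AKR1C2 and 16.7% in AKR1C1 also occurred unchanged in another gene. These shares were 1.75% in AKR1C3, 1.59% in AKR1B10, 0.527% in AKR1B15, 0.313% in AKR1C4, and 0 in AKR1A1 and AKR1B1. How the counting handled reads with several matches is not given in the sources used here. The division of counts between AKR1C1 and AKR1C2 is therefore uncertain, and the 4 AKR1C genes are also given as a sum.

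The 250 bases before a RefSeq start (GRCh38.p14) of each of the 3 abundant AKR1C genes are shown because their levels varied together. AKR1C3 has 2 such starts, and the window more like that of AKR1C1 was picked. Capitals mark bases that did not pair with the same base of AKR1C1 in a global alignment, in which the plus-strand window of AKR1C1 is chr10:4963165-4963414, the minus-strand window of AKR1C2 is chr10:5003858-5004107 and the plus-strand window of AKR1C3 is chr10:5048531-5048780.
AKR1C1: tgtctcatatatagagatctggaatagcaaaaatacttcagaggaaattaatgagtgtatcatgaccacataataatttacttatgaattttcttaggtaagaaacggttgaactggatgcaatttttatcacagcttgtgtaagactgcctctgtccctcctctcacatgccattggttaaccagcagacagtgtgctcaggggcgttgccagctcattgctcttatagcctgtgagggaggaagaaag
AKR1C2: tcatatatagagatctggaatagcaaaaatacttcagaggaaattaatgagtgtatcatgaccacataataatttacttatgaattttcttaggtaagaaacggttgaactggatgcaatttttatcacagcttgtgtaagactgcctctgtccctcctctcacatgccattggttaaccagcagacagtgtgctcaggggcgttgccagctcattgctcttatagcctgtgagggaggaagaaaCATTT
AKR1C3: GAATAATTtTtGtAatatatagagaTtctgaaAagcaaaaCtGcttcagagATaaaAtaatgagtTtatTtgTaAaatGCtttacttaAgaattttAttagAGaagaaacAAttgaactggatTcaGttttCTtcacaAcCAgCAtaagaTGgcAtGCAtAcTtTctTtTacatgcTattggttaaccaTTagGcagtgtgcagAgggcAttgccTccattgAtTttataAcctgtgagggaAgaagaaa
The AKR1C2 window matched AKR1C1 in 245 of 254 alignment columns (96.5%), with 1 mismatch and 8 gap columns, and the AKR1C3 window shown matched it in 72.4%. The other AKR1C3 window, chr10:5094164-5094413, matched it in 69.9%. That other window is the one nearer to the AKR1C3 coding stretch printed above, which begins at chr10:5094517. The core of the antioxidant response element, TGACNNNGC, was searched on both strands and had no match in any of the windows of AKR1A1, AKR1B1 and the AKR1C genes; 10.9% of 35116 windows of that length held one. CCAAT, also searched on both strands, had 1 match in each of the 3 windows shown, and 32.0% of all windows held it. A match or its absence in 250 bases says nothing about binding. AKR1B10 and AKR1B15 had no entry in the promoter table.

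Of the AKR1C genes, AKR1C2 was by far the most abundant, and it ranked between 5 and 23 among all genes by count, with a median rank of 10 over the 22 tumours. The 8 members together took 0.328% to 1.17% of all counts. Per kilobase of exon, AKR1C2 averaged 468 ± 109 CPM per kb in RMC-7977 tumours, 882 ± 260 in RMC-4550 tumours, 793 ± 183 in trametinib tumours, 519 ± 97.7 in cobimetinib tumours and 702 ± 183 in Vehicle tumours (SD, n = 4 per drug and 6 on Vehicle). On the same scale the other members' Vehicle averages were 103 ± 34.1 for AKR1C3, 76.4 ± 25.7 for AKR1B10, 68.8 ± 20.8 for AKR1C1, 46.6 ± 7.16 for AKR1A1, 30.6 ± 3.26 for AKR1B1, 10.4 ± 2.93 for AKR1B15 and 1.04 ± 0.659 for AKR1C4. In that order the steps from AKR1C3 to AKR1B10 and from AKR1B10 to AKR1C1 were smaller than the larger SD of each pair, while the step from AKR1C2 to AKR1C3 exceeded both SDs. AKR1C2 and AKR1C3 were also first and second in every drug group. Next came AKR1A1 in RMC-7977 tumours (59.8 ± 3.25 CPM per kb), AKR1B10 in RMC-4550 tumours (144 ± 61.8) and trametinib tumours (86.6 ± 27.1), and AKR1C1 in cobimetinib tumours (58.8 ± 11.9). These ranks depend on the exon length used, 8.765 kb for AKR1C1, 4.532 kb for AKR1C3 and 1.744 kb for AKR1B10. Not divided by length, the Vehicle averages were 603 ± 182 CPM for AKR1C1, 467 ± 154 for AKR1C3 and 133 ± 44.8 for AKR1B10.

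**Figure D1:**
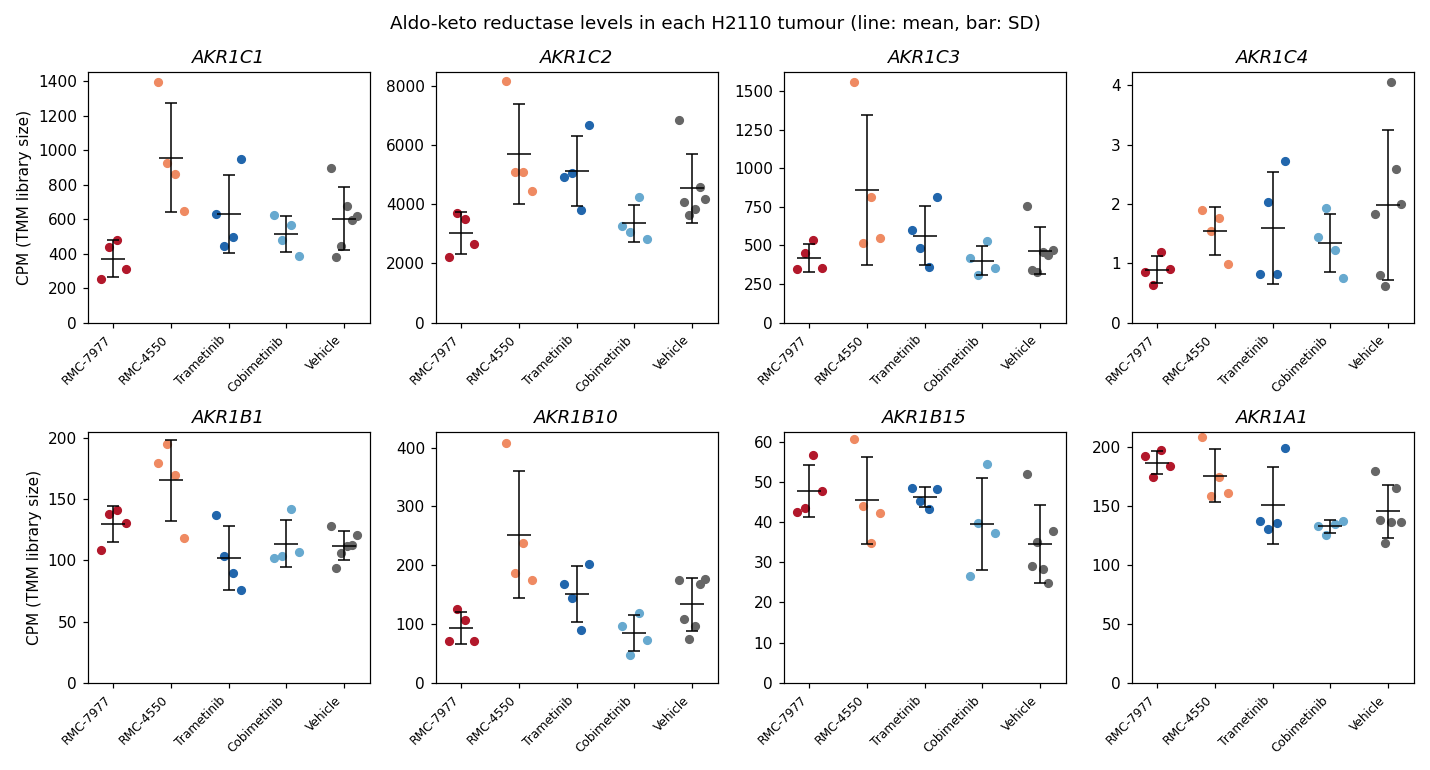
Level of each AKR1 gene (vertical axes, CPM, each panel with its own scale) in the 22 tumours, by group; dots are tumours, the horizontal line is the group mean and bars are SD. RMC-7977 tumours lie below all RMC-4550 tumours for AKR1C1, AKR1C2 and AKR1B10, and every drug group overlaps with Vehicle for every gene.

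None of the 8 members passed the test against Vehicle under any drug, with edgeR or with DESeq2. The direction of the point estimates differed between drugs: under RMC-4550, 7 of 8 members had a positive log2 fold change (median 0.48), as had 49.3% of all genes, and under RMC-7977, 5 of 8 had a negative one (median −0.33), as had 50.7% of all genes, with AKR1C1 and AKR1C2 among them. The medians were 0.12 under trametinib and −0.22 under cobimetinib, and the median of all genes tested lay between −0.00635 and −0.00500 in the 4 comparisons. The share of all genes called at an adjusted p under 0.05 (edgeR's quasi-likelihood test, Benjamini-Hochberg adjustment) was 0.748% for RMC-7977, 0.0283% for RMC-4550, and 0% for both trametinib and cobimetinib. At an unadjusted p under 0.05 the members were 2 higher and 3 lower under RMC-7977, where 4.87% and 5.47% of all genes were, 4 higher and 0 lower under RMC-4550 (2.82% and 1.42% of all genes), 0 under trametinib (18.8% of all genes) and 1 lower under cobimetinib (2.31% of all genes). In no member did all tumours of a drug lie on one side of all Vehicle tumours, which 4.12%, 1.42%, 1.17% and 1.48% of all genes did under RMC-7977, RMC-4550, trametinib and cobimetinib. The 4 comparisons share their Vehicle tumours, and fewer cells expressing a gene cannot be told apart from less RNA per cell in these bulk samples.

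AKR1C2 had 2223, 3707, 3511 and 2663 CPM in RMC-7977 replicates 1 to 4, and 8178, 5081, 5082 and 4462 CPM in RMC-4550 replicates 1 to 4. It had 4915, 5073, 3816 and 6682 CPM in the trametinib tumours, 3282, 3063, 4255 and 2812 CPM in the cobimetinib tumours, and 3651 (lowest), 4133 (median) and 6853 (highest) CPM in the Vehicle tumours. All RMC-7977 tumours lay below all RMC-4550 and all trametinib tumours, 3 of 4 RMC-7977 tumours and 3 of 4 cobimetinib tumours lay below every Vehicle tumour, and RMC-4550 replicate 1 and Vehicle replicate 1 stood well above the rest of their groups. Against Vehicle the log2 fold change was −0.58 ± 0.24 (SE) under RMC-7977 (95% interval −1.08 to −0.09, adjusted p = 0.354). It was 0.33 ± 0.23 under RMC-4550 (adjusted p = 0.986), and 0.091 without RMC-4550 replicate 1.

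AKR1C1 had 251, 440, 480 and 309 CPM in the RMC-7977 tumours, and 1397, 923, 864 and 645 CPM in the RMC-4550 tumours. It had 629, 442, 494 and 948 CPM in the trametinib tumours, 626, 479, 568 and 388 CPM in the cobimetinib tumours, and 382, 610 and 896 CPM (lowest, median, highest) in the Vehicle tumours. Every RMC-4550 tumour exceeded every RMC-7977 and every cobimetinib tumour, and 2 of 4 exceeded every Vehicle tumour. Its log2 fold change against Vehicle was −0.70 ± 0.28 under RMC-7977 (95% interval −1.28 to −0.13, adjusted p = 0.318), and 0.67 ± 0.27 under RMC-4550 (95% interval 0.11 to 1.22, adjusted p = 0.986), where it was 0.41 without RMC-4550 replicate 1. Without the 4 libraries that stood apart, described further on, the RMC-7977 value was −0.73 with an adjusted p of 0.0475.

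AKR1C3 had 345, 450, 535 and 353 CPM in the RMC-7977 tumours, and 1562, 517, 816 and 551 CPM in the RMC-4550 tumours. It had 597, 487, 358 and 812 CPM in the trametinib tumours, 416, 309, 527 and 352 CPM in the cobimetinib tumours, and 331, 449 and 758 CPM (lowest, median, highest) in the Vehicle tumours. All RMC-7977 tumours lay within the Vehicle range, 1 cobimetinib tumour lay below it, and 2 of 4 RMC-4550 tumours and 1 trametinib tumour lay above it. Its log2 fold change against Vehicle was −0.15 ± 0.30 under RMC-7977, which turned to 0.042 without Vehicle replicate 1 and lay between −0.29 and −0.078 when 1 tumour among RMC-7977 replicates 1, 3 and 4 and Vehicle replicates 2 and 3 was left out. Under RMC-4550 it was 0.88 ± 0.30 (95% interval 0.27 to 1.497, adjusted p = 0.834), and 0.41 without RMC-4550 replicate 1.

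AKR1C4 was near the limit of detection, with 8 to 14 counts in RMC-7977 tumours, 14 to 24 in RMC-4550 tumours, 10 to 23 in trametinib tumours, 12 to 25 in cobimetinib tumours and 7 to 71 in Vehicle tumours. The Vehicle range enclosed all others. Its log2 fold change was −1.15 ± 0.50 under RMC-7977 (adjusted p = 0.394) and −0.37 ± 0.48 under RMC-4550 (adjusted p = 0.986), which was −0.024 without Vehicle replicate 5 and −0.22 without RMC-4550 replicate 4.

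The 4 AKR1C genes summed gave 3818 ± 885 CPM in RMC-7977 tumours, 7521 ± 2458 in RMC-4550 tumours, 6315 ± 1567 in trametinib tumours, 4271 ± 788 in cobimetinib tumours and 5607 ± 1480 in Vehicle tumours (SD). The sum does not depend on how reads are divided between the copies, but it would lack any reads with several matches that the counting dropped. Against Vehicle its log2 fold change was −0.55 ± 0.25 under RMC-7977 (adjusted p = 0.417), 0.42 ± 0.24 under RMC-4550 (adjusted p = 0.986), 0.17 ± 0.24 under trametinib (adjusted p = 0.713) and −0.39 ± 0.25 under cobimetinib (adjusted p = 1.00). Leaving out a single tumour moved these: the RMC-4550 value was 0.16 without RMC-4550 replicate 1, and the cobimetinib value −0.23 without Vehicle replicate 1. The trametinib value was 0.33 without Vehicle replicate 1, 0.11 without Vehicle replicate 3, 0.34 without trametinib replicate 3 and −0.031 without trametinib replicate 4. AKR1C2 made up 73.4% to 84.9% of the AKR1C counts in the 22 tumours, AKR1C1 7.36% to 14.5%, AKR1C3 7.17% to 14.0% and AKR1C4 0.0135% to 0.0813%. The total ranged from 2820 to 11138 CPM. The AKR1C1 to AKR1C2 count ratio was 0.113 to 0.137 in RMC-7977 tumours and 0.145 to 0.182 in RMC-4550 tumours, which did not overlap, against 0.0938 to 0.176 in Vehicle tumours, which overlapped with both.

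**Figure D2:**
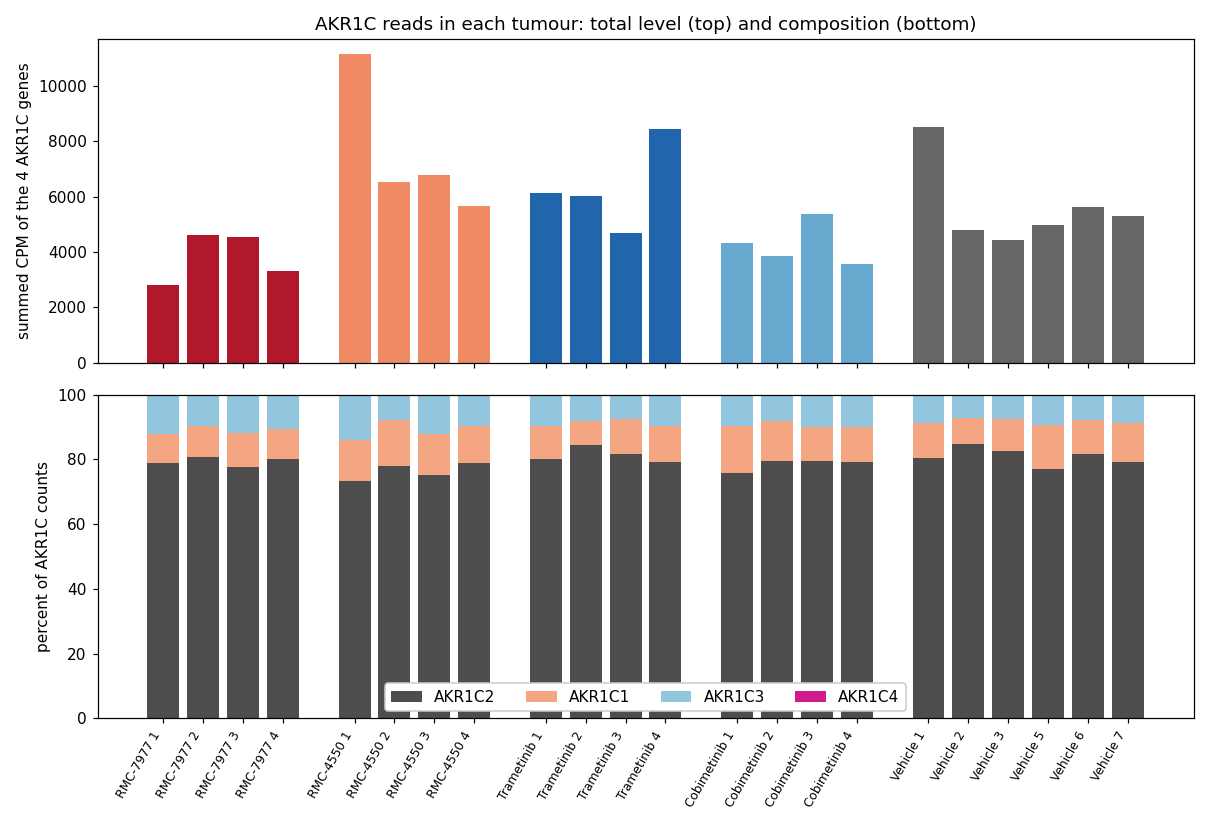
Summed level of AKR1C1 to AKR1C4 in each tumour (top, CPM) and the percent of the AKR1C counts that each gene took (bottom); labels give group and replicate. The total ranges from 2820 to 11138 CPM, while AKR1C2 stays between 73.4% and 84.9% of the counts and AKR1C4 is too low to be seen.

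AKR1B10 had 71.4, 125, 107 and 71.2 CPM in the RMC-7977 tumours, and 408, 187, 237 and 175 CPM in the RMC-4550 tumours. It had 168, 144, 89.7 and 202 CPM in the trametinib tumours, 97.2, 48.1, 118 and 73.7 CPM in the cobimetinib tumours, and 75.1, 138 and 177 CPM (lowest, median, highest) in the Vehicle tumours. The RMC-4550 tumours were above all RMC-7977 and cobimetinib tumours, and 3 of 4 were above every Vehicle tumour. Its log2 fold change against Vehicle was −0.51 ± 0.31 under RMC-7977 (adjusted p = 0.637), 0.92 ± 0.30 under RMC-4550 (95% interval 0.29 to 1.54, adjusted p = 0.797, and 0.57 without RMC-4550 replicate 1) and −0.66 ± 0.31 under cobimetinib (adjusted p = 1.00).

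AKR1B1 had 109, 138, 141 and 131 CPM in the RMC-7977 tumours, and 179, 195, 169 and 118 CPM in the RMC-4550 tumours. It had 137, 104, 89.8 and 75.8 CPM in the trametinib tumours, 102, 104, 142 and 107 CPM in the cobimetinib tumours, and 93.5, 112 and 128 CPM (lowest, median, highest) in the Vehicle tumours. In both the RMC-7977 and the RMC-4550 group 3 of 4 tumours were above every Vehicle tumour. The log2 fold changes against Vehicle were 0.21 ± 0.17 under RMC-7977 (adjusted p = 0.794) and 0.56 ± 0.17 under RMC-4550 (95% interval 0.20 to 0.92, adjusted p = 0.701).

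AKR1B15, a close relative of AKR1B10, had 42.6 to 56.8 CPM in RMC-7977 tumours, 34.8 to 60.6 in RMC-4550 tumours, 43.1 to 48.4 in trametinib tumours, 26.5 to 54.3 in cobimetinib tumours and 24.9 to 51.9 in Vehicle tumours. All groups overlapped with Vehicle. Its log2 fold changes against Vehicle were 0.47 ± 0.21 under RMC-7977 (adjusted p = 0.414), 0.40 ± 0.21 under RMC-4550 (adjusted p = 0.986, and 0.21 without RMC-4550 replicate 1) and 0.42 ± 0.21 under trametinib (adjusted p = 0.272). The last was 0.53 with an adjusted p of 0.0375 without the 4 libraries that stood apart. Over the settings other than leaving out single tumours, 0 to 2686 of all genes were called in that comparison. The trametinib libraries kept had GC coefficients, described further on, of −0.488, −0.416 and 0.0518. The Vehicle libraries kept had 0.304 to 0.426, and the part of this in the AKR1B15 value was not tested.

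AKR1A1 had 192, 174, 197 and 183 CPM in the RMC-7977 tumours, and 208, 159, 174 and 161 CPM in the RMC-4550 tumours. It had 137, 130, 136 and 199 CPM in the trametinib tumours, 133, 125, 135 and 137 CPM in the cobimetinib tumours, and 118, 137 and 179 CPM (lowest, median, highest) in the Vehicle tumours. The RMC-7977 tumours were all above the cobimetinib tumours and 3 of 4 were above every Vehicle tumour, whereas AKR1C1 and AKR1C2 averaged below Vehicle in the same tumours. Its log2 fold change against Vehicle was 0.36 ± 0.15 under RMC-7977 (95% interval 0.05 to 0.67, adjusted p = 0.367), and 0.38 with an adjusted p of 0.0380 without the 4 libraries that stood apart. Under RMC-4550 it was 0.27 ± 0.15 (adjusted p = 0.986), and 0.16 without RMC-4550 replicate 1.

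The compounds were also compared with each other, each at its own dose, in 6 pairs that share tumours, with p-values adjusted over the genes of each pair. No member passed edgeR's test in any pair. At an unadjusted p under 0.05, RMC-7977 had 4 members lower than RMC-4550 (4.34% of all genes), 2 lower than trametinib (12.1%) and 1 higher than cobimetinib (4.29%), RMC-4550 had 2 higher than trametinib (3.91%) and 6 higher than cobimetinib (4.25%), and trametinib had 2 higher than cobimetinib (10.2%). The lowest adjusted p-values belonged to AKR1C1 between RMC-7977 and RMC-4550 and to AKR1B10 between RMC-4550 and cobimetinib. In RMC-7977 against RMC-4550 tumours, AKR1B10 (−1.43 ± 0.34 log2, adjusted p = 0.118), AKR1C1 (−1.37 ± 0.30, adjusted p = 0.0851) and AKR1C2 (−0.91 ± 0.26, adjusted p = 0.233) had no overlap between the groups, all lower under RMC-7977, as had 4.21% of all genes. AKR1C3 had −1.03 ± 0.33 (adjusted p = 0.301, and −0.58 without RMC-4550 replicate 1) with overlapping groups, and the AKR1C sum −0.98 ± 0.27 (adjusted p = 0.212). The share of genes called in this pair was 0.0906%.

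Other settings gave calls for this pair. With DESeq2 the adjusted p was 0.00327 for AKR1C1, 0.00862 for AKR1B10 and 0.0261 for AKR1C2. Without trametinib replicate 4, a library of neither group, it was 0.0235 for AKR1C1 and 0.0490 for AKR1B10, and without the 4 libraries that stood apart it was 0.0111 for AKR1C1 and 0.0496 for AKR1C2.

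In RMC-4550 against cobimetinib tumours all 8 members had a positive log2 fold change (median 0.65, against 0.02 for all genes), as had 52.4% of all genes. AKR1B10 (1.58 ± 0.34, adjusted p = 0.0924), AKR1C1 (0.89 ± 0.30, adjusted p = 0.436), AKR1C2 (0.77 ± 0.26, adjusted p = 0.438) and AKR1A1 (0.40 ± 0.17, adjusted p = 0.631) did not overlap between the groups, higher under RMC-4550, as did 4.4% of all genes, and 0.0283% of all genes were called. AKR1C3 had 1.10 ± 0.33 (adjusted p = 0.343, and 0.63 without RMC-4550 replicate 1) and AKR1B1 0.54 ± 0.19 (adjusted p = 0.492). AKR1B10 had an adjusted p of 0.00335 with DESeq2 and of 0.0340 without trametinib replicate 4.

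The other pairs held smaller differences. RMC-7977 against trametinib, with 0.408% of all genes called, gave −0.76 ± 0.26 for AKR1C2 (adjusted p = 0.133), the only member whose groups did not overlap there (2.92% of all genes were lower without overlap), and −0.76 ± 0.30 for AKR1C1 (adjusted p = 0.185, and −0.48 without trametinib replicate 4). AKR1C2 passed in this pair with DESeq2 (adjusted p = 0.0323), without trametinib replicate 3 (0.0425) and without the 4 libraries that stood apart (0.0423). RMC-7977 against cobimetinib, with 0.278% of all genes called, gave 0.49 ± 0.17 for AKR1A1 (adjusted p = 0.305), whose groups did not overlap (5.74% of all genes were higher without overlap), and an adjusted p of 0.0283 without the 4 libraries. RMC-4550 against trametinib, with 0% called, gave 0.70 ± 0.19 for AKR1B1 (adjusted p = 0.196, and 0.0206 with DESeq2). Trametinib and cobimetinib, the pair that shares a target, with 0% called, gave 0.84 ± 0.34 for AKR1B10 (95% interval 0.14 to 1.54, adjusted p = 0.238) and 0.61 ± 0.26 for AKR1C2 (95% interval 0.08 to 1.15, adjusted p = 0.252).

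**Figure D3:**
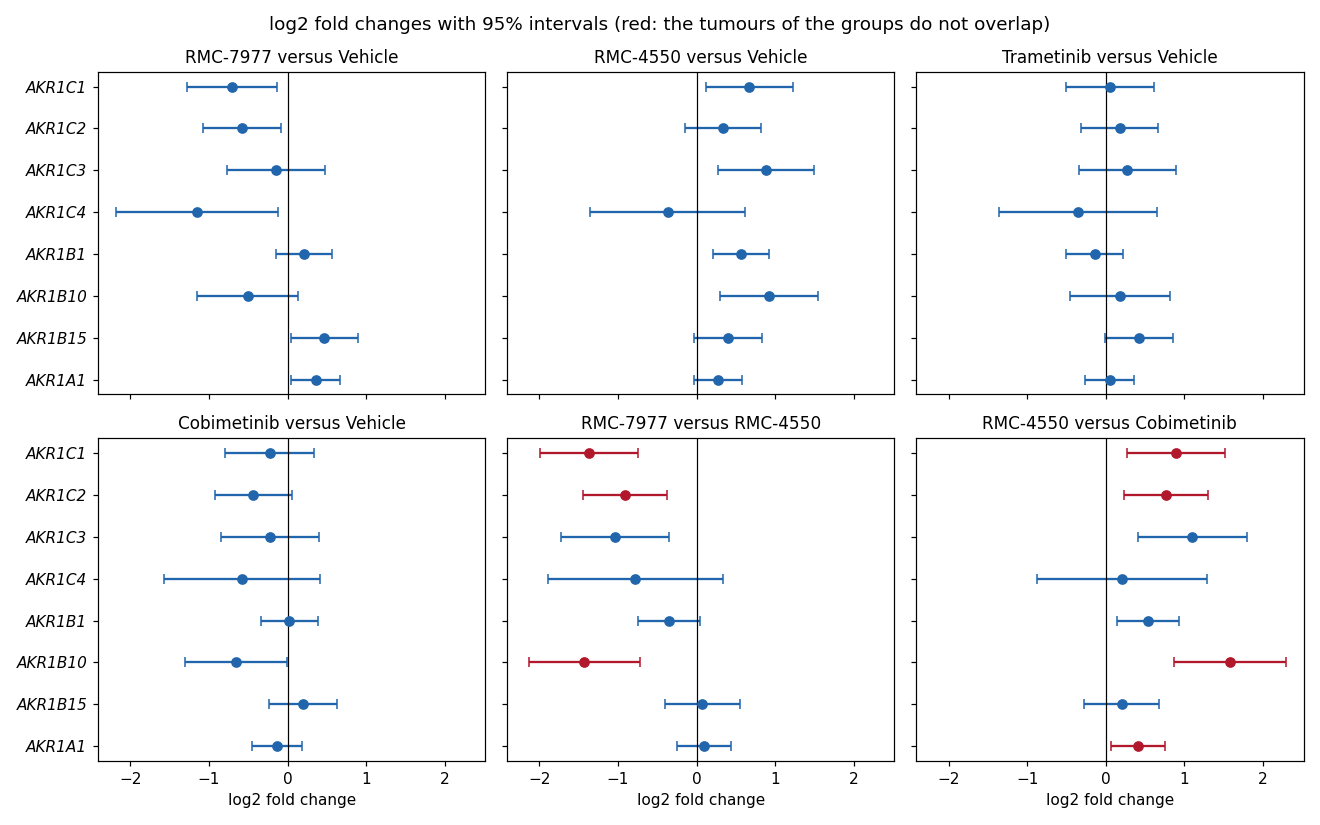
log2 fold change (horizontal axis) of each AKR1 gene in the 4 drug groups against Vehicle and in the 2 pairs of drugs with the lowest adjusted p-values; points are the fitted values and bars 95% intervals. Red marks genes whose tumours do not overlap between the groups, which were AKR1C1, AKR1C2 and AKR1B10 in RMC-7977 against RMC-4550 tumours, and these with AKR1A1 in RMC-4550 against cobimetinib tumours.

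Across the 22 tumours the abundant AKR1C genes and AKR1B10 varied together. Pearson's r of log2 CPM was 0.872 between AKR1C1 and AKR1C2, 0.849 between AKR1C2 and AKR1C3, 0.841 between AKR1C1 and AKR1C3, 0.891 between AKR1B10 and AKR1C3, and 0.875 between AKR1B10 and AKR1C2, although AKR1B10 lies on another chromosome and shares no window of 100 bases with the AKR1C genes. With the group means subtracted these were 0.826, 0.887, 0.837, 0.850 and 0.821. AKR1B15, next to AKR1B10, had r = 0.260 with it, and AKR1A1 and AKR1B1 had r = 0.329 with each other (−0.079 with group means subtracted). With group means subtracted AKR1A1 had r = 0.748 with AKR1C3 (0.578 before), 0.674 with AKR1C2 (0.276), 0.659 with AKR1C1 (0.261) and 0.630 with AKR1B10 (0.459). These are descriptions over tumours that share their libraries' depth and base composition. The genes most like AKR1C3 were ASF1A (r = 0.968), PIR (0.912) and FKBP3 (0.902), and those like AKR1C2 included ESCO2 (0.898) and GTF2H3 (0.877). For AKR1C1 they were DSCC1 (0.887), BANF1 (0.873) and PPIL3 (0.870), and for AKR1B10 LINC02562 (0.881), ASF1A (0.873) and KIAA0825 (0.866). TXNRD1, thioredoxin reductase and itself a known NRF2 target, was most like AKR1B1 (r = 0.864), followed by HGD (0.857) and NAMPTP1 (0.851). AKR1A1 was nearest to LINC01133 (0.865), ADH1C (0.843) and PRDX1 (0.823), AKR1B15 to TBC1D23 (0.914), NEK7 (0.891) and RAB8B (0.890), and AKR1C4 to SPC24 (0.794), SKA3 (0.753) and MIR4435-2HG (0.744). With group means subtracted FTL, the ferritin light chain, came first for AKR1C1 (0.922), BMI1 for AKR1C2 (0.900), ASF1A for AKR1C3 (0.964), NDUFB4 for AKR1B10 (0.879), TXNRD1 for AKR1B1 (0.833), TBC1D23 for AKR1B15 (0.925), RPL24P8 for AKR1A1 (0.907) and MARK2P9 for AKR1C4 (0.802).

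A few libraries stood apart from the rest, and their part in this shared variation was not tested. Totals ran from 7761987 to 17265754 counts. Trametinib replicate 4 had few low counts (1.99% of detected genes had 1 or 2 counts) and a median correlation with the other tumours of 0.751, and RMC-7977 replicate 3 also had few low counts (5.02%). The genes' deviations from their mean over all tumours also followed GC content, with a Spearman's rho that differed between libraries. It was lowest in RMC-4550 replicate 1 (−0.588, against 0.0985 to 0.276 in the other RMC-4550 tumours) and in Vehicle replicate 1 (−0.542, against 0.304 to 0.426 in the other Vehicle tumours). These and the 2 libraries with few low counts are the 4 that are left out together. The coefficient was also negative in trametinib replicates 1, 2 and 4 (−0.488, −0.416 and −0.0968), RMC-7977 replicate 3 (−0.424) and cobimetinib replicate 3 (−0.239). Its median was 0.124 in RMC-7977, 0.101 in RMC-4550, −0.256 in trametinib, 0.419 in cobimetinib and 0.345 in Vehicle tumours, and its part in the differences between groups was not tested beyond the GC correction. Of the 8 members, RMC-4550 replicate 1 was the highest tumour of its group for 7, and RMC-7977 replicate 3, trametinib replicate 4 and Vehicle replicate 1 for 6 each. The transcripts of AKR1C1, AKR1C2, AKR1C3 and AKR1C4 had 43.0%, 44.0%, 43.8% and 42.8% GC, those of AKR1B10 and AKR1B15 45.9% and 47.4%, and those of AKR1A1 and AKR1B1 55.2% and 55.0%.

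Over the 22 tumours, with group means subtracted from both, the AKR1C sum and the libraries' GC rho had a Pearson's r of −0.740 (Spearman's rho −0.573), −0.531 without the 2 tumours with the most extreme GC rho, and −0.821 without trametinib replicate 4. For AKR1B15 r was −0.728 (−0.528 without those 2 tumours), for AKR1B10 −0.613 (−0.504), for AKR1B1 −0.507 (−0.479) and for AKR1A1 −0.437 (−0.0992). With a correction for GC content the AKR1C1 difference between RMC-7977 and RMC-4550 tumours was −1.31 (adjusted p = 0.0503), that of AKR1B10 −1.37 (0.0822) and that of the AKR1C sum −0.91 (0.121), close to the values without it. Without all 4 libraries the differences of these in the same pair were −1.29, −1.17 and −0.83. The median GC rho of these groups lay close together (0.124 and 0.101). No corrected values are given here for RMC-4550 against cobimetinib tumours or trametinib against cobimetinib tumours. Their medians lay further apart, at 0.101 in RMC-4550, −0.256 in trametinib and 0.419 in cobimetinib tumours. In RMC-4550 against Vehicle tumours the AKR1C3 value was 0.75 after the correction and 0.61 without the 4 libraries, against 0.88 with all tumours and no correction.

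**Figure D4:**
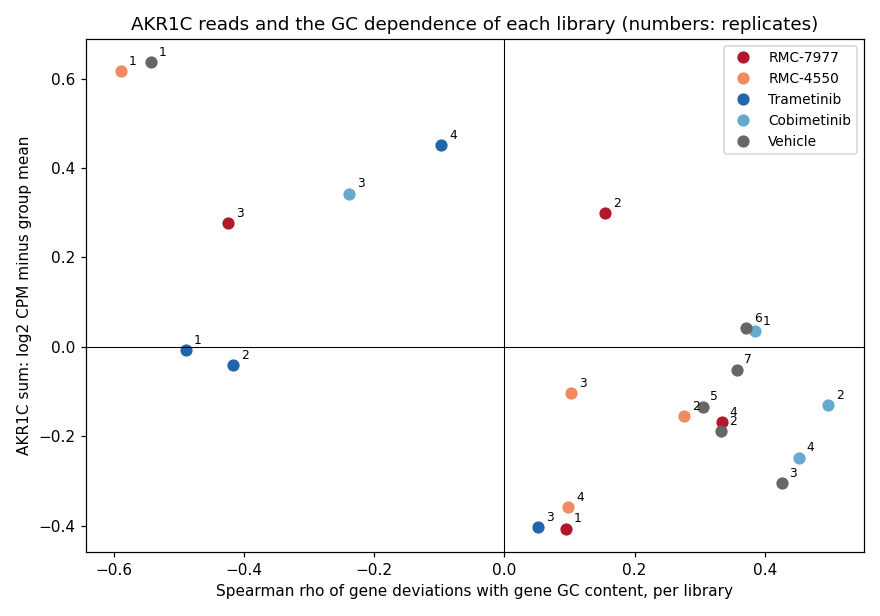
Summed AKR1C level of each tumour as log2 CPM minus its group mean (vertical axis) against the Spearman correlation of the library's gene deviations with gene GC content (horizontal axis); colours are groups and numbers replicates. RMC-4550 replicate 1 and Vehicle replicate 1 sit at the upper left, at a rho of −0.588 and −0.542.

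NRF2 targets outside the family were set beside it. Of 36 tested under RMC-4550 against Vehicle, 33 had a positive log2 fold change (median 0.39) and none passed the test. The targets had medians of 0.07 under RMC-7977, −0.23 under trametinib and −0.12 under cobimetinib. NQO1, the quinone reductase often read as a sign of NRF2 activity, averaged 425 ± 59.2 CPM in RMC-7977 tumours, 588 ± 146 in RMC-4550 tumours, 401 ± 140 in trametinib tumours, 291 ± 59.3 in cobimetinib tumours and 401 ± 83.2 in Vehicle tumours. Its log2 fold change was 0.55 ± 0.22 in RMC-4550 against Vehicle tumours (adjusted p = 0.986, and 0.35 without RMC-4550 replicate 1) and 1.01 ± 0.24 in RMC-4550 against cobimetinib tumours (adjusted p = 0.152, but 0.0211 with DESeq2 and 0.0253 without trametinib replicate 4). Of the 10 NRF2 regulators none passed in any of the 10 comparisons: NFE2L2 averaged 99.1 ± 6.84 CPM in RMC-7977 tumours, 100 ± 8.44 in RMC-4550 tumours and 96.7 ± 12.8 in Vehicle tumours, and KEAP1 averaged 160 ± 16.7 CPM in RMC-7977 tumours, 148 ± 26.2 in RMC-4550 tumours and 154 ± 26.2 in Vehicle tumours.

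The single NRF2 target that passed was ALDH3A1, an aldehyde dehydrogenase that oxidises the aldehydes that aldo-keto reductases reduce. It averaged 163 ± 47.5 CPM in RMC-7977 tumours, 94.8 ± 18.7 in RMC-4550 tumours, 63.0 ± 20.05 in trametinib tumours, 52.6 ± 14.4 in cobimetinib tumours and 74.6 ± 25.7 in Vehicle tumours. It rose under RMC-7977 by 1.13 ± 0.26 log2 (adjusted p = 0.0455) against Vehicle, while AKR1C1 and AKR1C2 had negative values. It was also higher in RMC-7977 than in trametinib tumours (1.37 ± 0.30, adjusted p = 0.0452) and cobimetinib tumours (1.63 ± 0.30, adjusted p = 0.0156). The call against Vehicle was lost without any one of 16 of the 22 tumours, with adjusted p-values up to 0.174, and that against trametinib without any one of 13, with values up to 0.151. Against cobimetinib it was lost without RMC-7977 replicate 1, 2 or 4 or cobimetinib replicate 1, 2 or 3, with values up to 0.120. The call against Vehicle was also lost under library-size scaling, without a filter, with 2 groups only and with the replicate number as a block (adjusted p up to 0.254). The call against trametinib was lost under the same settings and when both libraries with few low counts were left out (adjusted p = 0.0538 to 0.531).

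Among the other lists, PTGS1, a cyclooxygenase that starts prostaglandin synthesis, fell under RMC-7977. It averaged 2.78 ± 0.630 CPM in RMC-7977 tumours and 21.97 ± 7.84 in Vehicle tumours (log2 fold change −2.97 ± 0.33, adjusted p = 0.000169), and it was lower in RMC-7977 tumours than under each other drug, with trametinib the least certain (−1.86 ± 0.34, adjusted p = 0.0273, but 0.463 when only these groups were fitted and 0.0581 to 0.101 without any one RMC-7977 tumour). It was the 1 of 26 steroid and prostaglandin enzymes tested that passed. PTGS2, the other cyclooxygenase, averaged 15.8 ± 1.71 CPM in RMC-7977 tumours and 21.9 ± 8.12 in Vehicle tumours (adjusted p = 0.606). Of 26 retinal and carbonyl enzymes tested, ALDH3A1 passed as above, and ALDH1A1, a retinal dehydrogenase, was higher in RMC-7977 than in cobimetinib tumours (34.9 ± 18.5 and 4.35 ± 1.61 CPM, log2 fold change 3.00 ± 0.53, adjusted p = 0.0122). That call was lost without RMC-7977 replicate 1 or 2 or cobimetinib replicate 2, 3 or 4, with adjusted p-values of 0.0544 to 0.0740. Of 12 polyol and glucuronate enzymes ALDH1A1 was again the only one that passed, in that pair. None of 8 other aldo-keto reductases passed in any comparison. AKR1D1, a steroid reductase of that list, averaged 0.310 ± 0.254 CPM in RMC-7977 tumours and 0.750 ± 0.523 in Vehicle tumours.

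As a check of drug action, 9 genes of MAPK output were tested, and 6 fell under RMC-7977, 1 under RMC-4550 and 0 under trametinib and cobimetinib, against a share of all genes called of 0.748% under RMC-7977, 0.0283% under RMC-4550 and 0% under both MEK inhibitors. All 9 had a negative log2 fold change under each drug. DUSP6, an ERK phosphatase that ERK itself induces, averaged 1.42 ± 0.309 CPM in RMC-7977 tumours, 1.60 ± 0.697 in RMC-4550 tumours, 2.55 ± 1.79 in trametinib tumours, 5.81 ± 1.33 in cobimetinib tumours and 18.5 ± 6.59 in Vehicle tumours. Every trametinib tumour (at most 4.15 CPM) and every cobimetinib tumour (at most 7.15 CPM) lay below every Vehicle tumour (at least 8.05 CPM). DUSP6 fell under RMC-7977 (log2 fold change −3.69 ± 0.54, adjusted p = 0.00099) and under RMC-4550 (−3.52 ± 0.53, adjusted p = 0.0191). With the replicate number as a block the RMC-7977 value was −3.28 with an adjusted p of 0.135 and the RMC-4550 value −3.08 with an adjusted p of 0.403. The RMC-4550 call was also lost without RMC-4550 replicate 1 or 3 or Vehicle replicate 5, with adjusted p-values of 0.0710 to 0.143. Between RMC-7977 and RMC-4550 tumours, the pair in which AKR1C1, AKR1C2 and AKR1B10 did not overlap, the DUSP6 difference was −0.18 ± 0.55 (adjusted p = 0.988). Of the 9 MAPK output genes, 7 had a negative log2 fold change in that pair and 2 a positive one (median −0.84), and none passed. Whether MAPK output had a part in the AKR1 differences was not tested.

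Markers of the labelled cell type were present: all 10 epithelial genes were detected in every group, summing to 4118 to 6914 CPM in RMC-7977 tumours, 3215 to 5219 in RMC-4550 tumours, 4059 to 5283 in trametinib tumours, 3632 to 4985 in cobimetinib tumours and 5113 to 6359 in Vehicle tumours. Of 8 liver genes, looked at because AKR1C4 is a liver enzyme, 1 passed the filter on low counts, and the most abundant was FGA. The list summed to 429 to 816 CPM in RMC-7977 tumours, 810 to 2069 in RMC-4550 tumours, 669 to 1166 in trametinib tumours, 737 to 1147 in cobimetinib tumours and 391 to 1444 in Vehicle tumours, with APOA1 at 0 in every tumour. Muscle genes, led by MB, summed to 67.2 to 104 CPM in RMC-7977 tumours, 83.7 to 132 in RMC-4550 tumours, 43.8 to 147 in trametinib tumours, 44.1 to 71.2 in cobimetinib tumours and 39.4 to 83.2 in Vehicle tumours, so that all RMC-4550 tumours lay above all cobimetinib and Vehicle tumours. The margin over Vehicle was small (83.7 against 83.2 CPM), and 1 of the 7 muscle genes passed the filter, so the sum does not measure muscle. Endothelial genes summed to 19.1 to 77.9 CPM in RMC-7977 tumours, 45.5 to 69.3 in RMC-4550 tumours, 55.6 to 235 in trametinib tumours, 64.6 to 120 in cobimetinib tumours and 40.6 to 198 in Vehicle tumours. Fibroblast genes summed to 114 to 260 CPM in RMC-7977 tumours, 83.0 to 263 in RMC-4550 tumours, 88.7 to 172 in trametinib tumours, 143 to 263 in cobimetinib tumours and 36.2 to 349 in Vehicle tumours. Myeloid genes summed to 6.58 to 10.9 CPM in RMC-7977 tumours, 8.34 to 15.2 in RMC-4550 tumours, 15.4 to 26.7 in trametinib tumours, 11.01 to 20.1 in cobimetinib tumours and 11.8 to 27.0 in Vehicle tumours. The myeloid sums of all RMC-7977 tumours lay below those of all Vehicle tumours, by a small margin (10.9 against 11.8 CPM). Of the 10 myeloid genes 3 passed the filter on low counts, as did 5 of 8 endothelial and 2 of 8 fibroblast genes. The part of these lists in the AKR1 levels was not tested. Blood genes summed to at most 0.667 CPM in any tumour.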

How the data were processed

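RNA of 22 tumours was sequenced from strand-specific libraries of total RNA, per the labels' protocols. The deposited table holds the authors' raw read counts per gene. The submitters' processing notes list featureCounts (1.5.0-p3), HISAT2 (2.0.5), fastp, edgeR (3.22.5), DESeq2 (1.20.0) and the build hg38. Not given in the sources used here are the strand setting, how reads mapping to several places were counted, the annotation release and whether host reads were taken out.

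Genes were filtered (edgeR 4.0.16, minimum count 10), scaled by TMM, and fitted by the quasi-likelihood method (robust) over all 22 tumours with 1 mean for each of the 5 groups in R (4.3.3). Tests of the 10 comparisons were 2-sided F-tests, adjusted by Benjamini-Hochberg over 17652 genes, which held 99.718% of the counts, at a threshold of 0.05. Intervals are 95%, from the fit's SE and degrees of freedom, and cover the spread between these tumours. Log2 CPM used a prior count of 2. The scripts were tested on simulated data. Sequence identity was computed with Biopython (1.88) from GENCODE 29 transcripts, which also gave the GC content, and promoters came from RefSeq, where 6 of the 8 members matched.

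Alternatives were DESeq2 (1.42.0), other scaling and filters, fitting 2 groups only, a block for the replicate number, a GC correction, and leaving out tumours. The deviations of same-numbered tumours had a positive r in all 3 pairs of RMC-4550 with Vehicle (0.170 to 0.711) and of trametinib with Vehicle (0.136 to 0.202). In no other comparison did all pairs exceed an r of 0.1. The highest r was that of replicate 1, from the 2 libraries with the most negative GC rho. Tumours with different numbers were not compared, so these values do not tie the likeness to the number. No label gives the meaning of the number.

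The members, the 7 gene lists and the tests were chosen with earlier results of these data known. Named were all members, NQO1, NFE2L2, KEAP1 and DUSP6, of each list up to 6 genes with the smallest adjusted p against Vehicle, of which mainly those that passed are described, and the 3 genes most correlated with each member, of which 1 gene is not reported here. ALDH1A1 passed only between drugs, and the values of the other named genes are not all printed.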

Additional observations from a re-analysis of the deposited data

Results flagged for a closer look

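Dixon's test was run on the CPM of each member in each group, 40 groups in all, and in 5 of them, from 4 tumours, 1 tumour lay far from the rest of the group; chance gives about 1 in 20 groups. AKR1C2 had 8178 CPM in RMC-4550 replicate 1, against 4462 to 5082 CPM in the other RMC-4550 tumours. It had 6853 CPM in Vehicle replicate 1, against 3651 to 4592 CPM in the other Vehicle tumours, and AKR1C3 had 758 CPM there, against 331 to 470 CPM. Both libraries had the most negative GC rho given above, and its part in these levels was not tested. AKR1A1 had 199 CPM in trametinib replicate 4, against 130 to 137 CPM in the other trametinib tumours, and AKR1B1 had 142 CPM in cobimetinib replicate 3, against 102 to 107 CPM in the other cobimetinib tumours.

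Outside the family, related genes and pseudogenes held 2 values far above Vehicle, both in trametinib replicate 4, a library with few low counts. The pseudogene AKR1B10P1 had 9.76 CPM (61 counts) there, against 0 to 0.114 CPM in Vehicle tumours. AKR1D1 had 8.16 CPM (51 counts) there, against 0.171 to 1.502 CPM in Vehicle tumours.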

How the results depend on the processing

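No member was called in any of the 10 comparisons with edgeR as described, and none against Vehicle with DESeq2, under RLE or library-size scaling, with other filters, with 2 groups only, or after the GC correction. DESeq2 called 3 members between RMC-7977 and RMC-4550, and 1 each between RMC-7977 and trametinib, RMC-4550 and trametinib, and RMC-4550 and cobimetinib. With both libraries of few low counts left out, 1 member was called between RMC-7977 and RMC-4550 and 1 between RMC-4550 and cobimetinib. Without these and the 2 libraries with the most negative GC rho, 2 were called between RMC-7977 and Vehicle, 1 between trametinib and Vehicle, 2 between RMC-7977 and RMC-4550, 2 between RMC-7977 and trametinib and 1 between RMC-7977 and cobimetinib. Leaving out 1 tumour at a time gave 0 to 2 calls between RMC-7977 and RMC-4550 (2 without trametinib replicate 4), and 0 to 1 between RMC-7977 and trametinib (1 without trametinib replicate 3) and between RMC-4550 and cobimetinib (1 without trametinib replicate 4). Of all genes, 8 to 105, 0 to 1288 and 0 to 90 were called in these pairs, in that order, when 1 tumour was left out. The cause was not tested. The numbers of all genes called also changed with the setting, and those against Vehicle are given below. Over the settings other than leaving out single tumours, they ran from 11 to 192 between RMC-7977 and RMC-4550. They ran from 0 to 941 between RMC-7977 and trametinib and from 25 to 674 between RMC-7977 and cobimetinib. For RMC-4550 they ran from 0 to 167 against trametinib and from 0 to 160 against cobimetinib. The share of all genes in each single setting is not given here, so these calls are descriptions.

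The direction turned in few values. The log2 fold change of AKR1C3 under RMC-7977 against Vehicle ran from −0.29 to 0.042 (highest without Vehicle replicate 1). The AKR1C sum ran from −0.031 to 0.34 under trametinib against Vehicle (lowest without trametinib replicate 4) and was −0.013 when both libraries with few low counts were left out, and it ran from −0.046 to 0.44 in RMC-4550 against trametinib tumours (lowest without RMC-4550 replicate 1). Without RMC-4550 replicate 1 the values of 6 members under RMC-4550 against Vehicle, given beside each, were over 1.5 times smaller. With the replicate number as a block, AKR1C4 under RMC-4550 against Vehicle was 0.56, and the block gave 0 called members in each of the 10 comparisons. AKR1A1 in cobimetinib tumours averaged 138 CPM by library size, against 132 CPM.

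Counts over all genes moved far more. Over the settings other than leaving out single tumours, 2 to 1134 genes were called between RMC-7977 and Vehicle (132 with the settings used), 0 to 35 between RMC-4550 and Vehicle (5), 0 to 2686 between trametinib and Vehicle (0) and 0 to 8 between cobimetinib and Vehicle (0). Depth of 7761987 to 17265754 counts limited AKR1C4, at 7 to 71 counts a tumour.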
